A study of Oryza sativa with 8 samples.

Results

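Ascorbate peroxidases remove hydrogen peroxide by oxidising ascorbate, and the ascorbate is then regenerated through the ascorbate-glutathione cycle. Rice carries a small nuclear gene family whose isoforms are sent to different compartments: the cytosol, the peroxisome, or the plastids and mitochondria. Salt raises peroxide production in plants, and the chloroplast isoforms act next to photosystem I, where oxygen is reduced in the light. The family described here consists of the 8 genes APX1 to APX8, chosen by their locus identifiers and not by any measured value, out of 55797 genes with a single chromosomal locus. All 8 were found in every library.

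Transcripts were measured by sequencing in Oryza sativa, cultivar Nipponbare, with 8 libraries in 4 groups of 2. Salt-treated roots and salt-treated leaves came from 2-week-old seedlings in liquid culture given 150 mmol NaCl for 24 hours (the labels state an amount without a volume). Control roots and control leaves came from seedlings of the same culture kept without added salt. The groups follow the library titles, because the tissue field reads shoot for the root libraries and seedling for the leaf libraries. The labels call the replicates biological but do not say how many plants each holds. The p-values below therefore compare differences with the spread between these libraries, which the main fit pools over the 4 groups. The values are FPKM, fragment numbers divided by the length of the transcript and the size of the library, and can be compared between genes because they are per length.

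Between 19726 and 21254 genes reached 1 FPKM in a library, and the fragment number implied by the deposited confidence bounds summed to between 9060000 and 10700000 per library. Rank correlations between replicates over the 23776 tested genes were 0.969 to 0.983. The files pair no identifier with a name, so leaf and root identity could not be checked on named marker genes. A set of 175 genes that are abundant in leaf (at least 100 FPKM in both leaf controls) and under 2% of that level over the root libraries was used instead, to follow leaf transcripts in root. APX8 meets the same rule, and no family member is among the 175. Their median in the root libraries was 0.264% and 0.368% of the leaf level with salt, and 1.18% and 0.354% without, so root control replicate 1 held the most.

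The genes lie on 6 chromosomes. APX1 (LOC_Os03g17690) is on chromosome 3 at 9843327 to 9846747 and APX2 (LOC_Os07g49400) on chromosome 7 at 29583717 to 29586497. These are the cytosolic isoforms. The peroxisomal isoforms are APX3 (LOC_Os04g14680, chromosome 4, 8239237 to 8241868) and APX4 (LOC_Os08g43560, chromosome 8, 27555021 to 27559370). APX6 (LOC_Os12g07820, chromosome 12, 3955968 to 3959805) and APX5 (LOC_Os12g07830, chromosome 12, 3960512 to 3964001) are neighbours with 706 bases and no other locus between them, and reads that fit both copies could be divided between them by the authors' counting. APX7 (LOC_Os04g35520, chromosome 4, 21622953 to 21627315) encodes the isoform of the chloroplast stroma, and APX8 (LOC_Os02g34810, chromosome 2, 20868260 to 20872079) the isoform bound to the thylakoid membrane. Coordinates are 1-based, on the build of the deposited files, whose name is not given in the sources used here. No other locus overlaps any of the 8. RefSeq lists a gene under each of the 8 names on the same chromosome, in the assembly ASM3414082v1.

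The family was dominated by different members in the 2 organs. In roots the cytosolic genes APX1 and APX2 held most of the family's transcript, while in unsalted leaves the thylakoid gene APX8 was the highest single member. The summed level of the 8 genes was 1439 and 1471 FPKM in salt-treated roots, against 1004 and 1132 FPKM in control roots. It was 1025 and 1000 FPKM in salt-treated leaves, against 781 and 743 FPKM in control leaves. The sum was thus higher with salt in both organs on the deposited scale, and the libraries of the 2 treatments did not overlap. Groups of 2 can fail to overlap by chance, and the sum was not taken on other scalings. These sums are a description, since no test was made on the sum of chosen genes. Differences in bulk tissue cannot tell fewer cells of a type from less RNA per cell.

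The cytosolic genes made up 86.3% and 86.4% of the summed level in salt-treated roots, against 88.6% and 88.9% in control roots. In leaves they made up 58.8% and 58.8% with salt, against 45.1% and 42.9% in controls. APX8 took 25.0% and 25.5% of the sum in salt-treated leaves, against 36.3% and 36.7% in control leaves. Salt-treated leaves thus had a larger cytosolic share and a smaller thylakoid share of the family. The peroxisomal genes held 4.80% and 5.19% in salt-treated roots and 5.14% and 4.99% in control roots. In leaves they held 11.5% and 11.3% with salt, against 14.4% and 15.9% without. The genes of plastids and mitochondria, APX5 to APX8, held 8.87% and 8.37% in salt-treated roots, against 6.24% and 6.10% in control roots. APX7 made up most of that root share, with 6.55% and 6.02% of the family in salt-treated roots and 4.10% and 4.34% in control roots. In leaves APX5 to APX8 held 29.7% and 29.9% with salt, against 40.5% and 41.2% without.

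**Figure D1:**
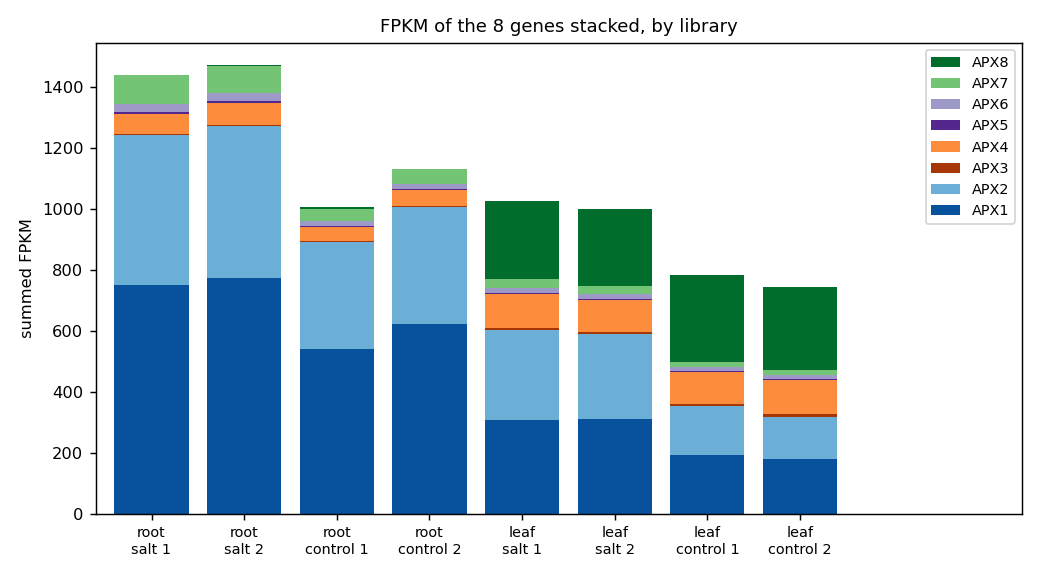
Stacked bars of the FPKM of APX1 to APX8 in each of the 8 libraries, in the order root salt, root control, leaf salt and leaf control, with the replicate number under each bar. The bars reach 1439 and 1471 FPKM in salt-treated roots and 781 and 743 FPKM in control leaves, and the APX8 segment is visible as a large block only in the 4 leaf libraries.

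The order of levels within the family also differed. In salt-treated roots it ran APX1, APX2, APX7, APX4, APX6, APX5, APX3, APX8, and only APX5 and APX3 overlapped as neighbours. In control roots it ran APX1, APX2, APX4, APX7, APX6, APX3, APX5, APX8, where APX4 overlapped APX7 and APX5 overlapped APX8. In salt-treated leaves it ran APX1, APX2, APX8, APX4, APX7, APX6, APX3, APX5. In control leaves APX8 came first, followed by APX1, APX2, APX4, APX7, APX6, APX3 and APX5. No neighbours in the leaf orders overlapped between libraries.

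**Figure D2:**
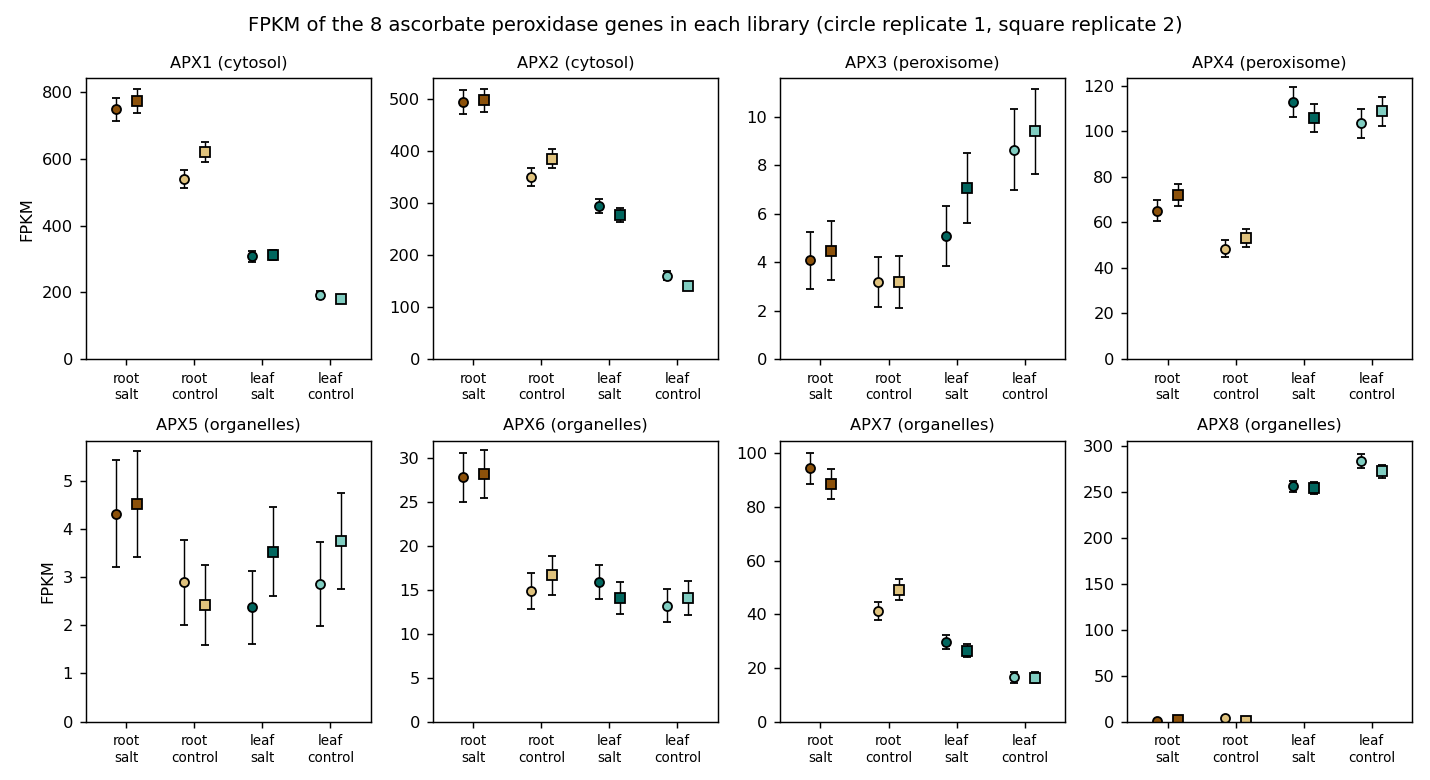
FPKM of each gene (vertical axes, linear, from 0) in the 2 libraries of each group, with vertical lines from the lower to the upper confidence bound deposited by the authors. APX1, APX2 and APX7 are higher with salt in both organs, APX6 stands apart in salt-treated roots at 27.8 and 28.2 FPKM, and APX8 is near the floor in all 4 root libraries.

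Salt against control was tested in each organ on log2(FPKM + 1) with limma, across all 23776 tested genes, with p-values adjusted by Benjamini-Hochberg over those genes. The words rose and fell are used only for an adjusted p under 0.05. All 8 genes passed the filter of at least 1 FPKM in 2 libraries. Apart from APX8, which reached that level in 7 of the 8 libraries, they did so in all of them. In roots, 6 of the 8 genes rose and none fell, on a background where 29.1% of all tested genes rose and 14.4% fell. In leaves 3 rose and 1 fell, where 14.8% of all tested genes rose and 18.9% fell. The difference between the 2 changes, root minus leaf, was more positive in root for 2 genes, APX3 and APX6, and more positive in leaf for none, where 23.1% and 9.71% of all tested genes were. At an unadjusted p under 0.05 in limma, 4 of the 8 were more positive in root and 1, APX2, in leaf, where 30.3% and 13.6% of all tested genes were. None was lower with salt in root at that p, where 17.3% of all tested genes were. The median change over the 8 genes was 0.43 in root and 0.09 in leaf, beside medians of 0.13 and -0.05 over all tested genes. The root count depends on scaling. After scaling to the 75th percentile, which moves the median of all genes from 0.13 to 0, only APX6 and APX7 of the 8 rose. At that scaling 5000 of the 23776 tested genes rose in root. After quantile normalization, with that median at -0.03, 5 of the 8 rose: APX1, APX2, APX4, APX6 and APX7. There 4711 of the 23776 tested genes rose in root. Scaling to the 75th percentile moves the median of the difference between organs to 0.03, against 0.19 as deposited. It moves that of root against leaf with salt to 0.17, against 0.35. Among all genes called in root, 67.0% were higher on the deposited scale and 51.2% after that scaling.

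APX7, the stromal isoform, rose in both organs and kept its call under every alternative run. It had 94.3 and 88.6 FPKM in salt-treated roots, against 41.2 and 49.2 FPKM in control roots. Its leaf values were 29.6 and 26.5 FPKM with salt, against 16.6 and 16.3 FPKM without. The salt and control libraries did not overlap in either organ. The log2 change was 1.01 ± 0.11 in root (SE, limma adjusted p = 0.000625), a 2.03-fold ratio of mean FPKM. In leaf it was 0.73 ± 0.11 (SE, limma adjusted p = 0.00271), a 1.70-fold ratio. Across the alternatives the root change ranged over 0.83 to 1.13 and the leaf change over 0.62 to 0.81. The difference between the organs, 0.27, had a 95% interval of -0.09 to 0.64 and was not called (limma adjusted p = 0.213). A gene for a chloroplast enzyme was thus at a higher level in root than in leaf in both treatments, at 91.5 ± 4.04 FPKM in salt-treated roots and 28.1 ± 2.19 FPKM in salt-treated leaves (SD, n = 2).

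The cytosolic genes rose in leaf by a margin that held under every alternative. APX1 had 308 and 312 FPKM in salt-treated leaves, against 193 and 179 FPKM in control leaves. APX2 had 294 and 277 FPKM in salt-treated leaves, against 160 and 140 FPKM in control leaves. Neither gene had overlapping libraries. The leaf change of APX1 was 0.74 ± 0.12 (SE, limma adjusted p = 0.0037) and that of APX2 0.93 ± 0.11 (SE, limma adjusted p = 0.00128). In fold terms the means were 1.67 and 1.90 times those of the controls. APX2 had the largest leaf change of the family, above 93.4% of all tested genes.

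In root the cytosolic genes stood at higher levels and also rose, by margins nearer the threshold. APX1 had 749 and 774 FPKM in salt-treated roots, against 540 and 622 FPKM in control roots. APX2 had 493 and 497 FPKM in salt-treated roots, against 350 and 385 FPKM in control roots. Both genes were therefore among the most abundant transcripts of the root, with APX1 at rank 61 and 50 of the tested genes with salt and at 104 and 89 without. The changes were 0.39 ± 0.12 for APX1 (SE, limma adjusted p = 0.0335) and 0.43 ± 0.11 for APX2 (SE, limma adjusted p = 0.0209). After quantile normalization both calls held, at 0.67 (limma adjusted p = 0.00931) and 0.41 (limma adjusted p = 0.0398). Scaling to the 75th percentile ended both calls, at 0.21 (limma adjusted p = 0.19) and 0.25 (limma adjusted p = 0.128), and so did fitting only the root libraries (limma adjusted p = 0.127 and 0.0587). The call of APX1 was also lost without root salt replicate 1, root salt replicate 2, root control replicate 1, leaf salt replicate 1, leaf salt replicate 2 or leaf control replicate 2, with changes of 0.29 to 0.42 (limma adjusted p 0.0502 to 0.136), and without any filter on low values (limma adjusted p = 0.0716). That of APX2 was lost without root salt replicate 1, root salt replicate 2 or root control replicate 1, with changes of 0.36 to 0.44 (limma adjusted p 0.0681 to 0.0891).

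The difference between the root and leaf changes of the cytosolic genes was negative on the deposited scale but was not called. It was -0.34 for APX1 (95% interval -0.74 to 0.05, limma adjusted p = 0.16) and -0.49 for APX2 (95% interval -0.87 to -0.11, limma adjusted p = 0.0551). For APX1 it was -0.54 after scaling to the 75th percentile, where it was called (limma adjusted p = 0.0445), and 0.01 after quantile normalization (limma adjusted p = 0.976). For APX2 it was -0.69 after scaling to the 75th percentile (limma adjusted p = 0.0198), and with only genes of at least 5 FPKM tested its adjusted p was 0.0496 in limma. The ratio of APX1 to APX2 was 1.52 and 1.56 in salt-treated roots and 1.55 and 1.62 in control roots. In leaves it was 1.05 and 1.13 with salt, against 1.20 and 1.28 without.

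**Figure D3:**
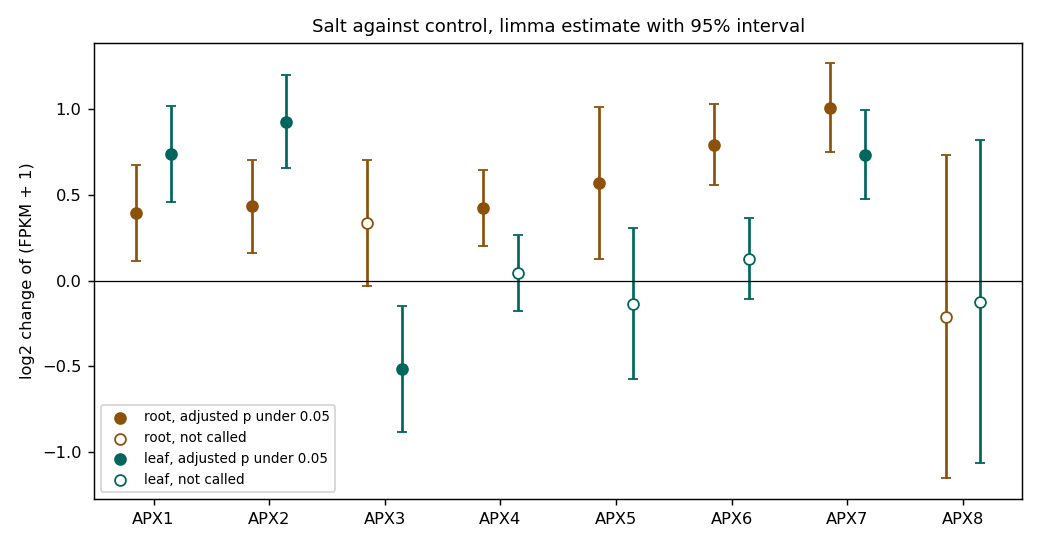
Salt minus control on the log2(FPKM + 1) scale for each gene (vertical axis), root left of leaf, with 95% intervals from limma and filled points where the adjusted p is under 0.05. The root estimates of APX1 to APX7 all lie above 0, whereas the leaf estimates range over -0.52 for APX3 to 0.93 for APX2, and the APX8 intervals are the widest.

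APX6 rose in root and did not pass the test in leaf. It had 27.8 and 28.2 FPKM in salt-treated roots, against 14.9 and 16.6 FPKM in control roots. Its leaf values were 15.9 and 14.1 FPKM with salt, against 13.2 and 14.0 FPKM without. The 2 salt-treated root libraries thus lay above all 6 others. The root change was 0.79 ± 0.10 (SE, limma adjusted p = 0.00112), a 1.78-fold ratio, and it was called under every alternative. The leaf change was 0.13 (95% interval -0.11 to 0.36, limma adjusted p = 0.371). The difference between organs was 0.66 ± 0.14 and was called (SE, limma adjusted p = 0.0128). It was not called after quantile normalization, at 0.45 (limma adjusted p = 0.0515).

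APX5, the neighbour of APX6, was the lowest member in leaf and rose in root by a margin near the threshold. It had 4.31 and 4.51 FPKM in salt-treated roots, against 2.89 and 2.42 FPKM in control roots. In leaves it had 2.37 and 3.52 FPKM with salt, against 2.86 and 3.75 FPKM without, and these groups overlapped. The deposited bounds of APX5 reach 24.4% to 34.2% of the value to either side. The root change was 0.57 ± 0.19 (SE, limma adjusted p = 0.0449). This call was lost without any 1 of the 4 root libraries, leaf control replicate 1 or leaf control replicate 2, with changes of 0.48 to 0.66 (limma adjusted p 0.0548 to 0.171), and under 5 of the other alternatives, among them scaling to the 75th percentile (0.43, limma adjusted p = 0.104). The leaf change was -0.13 (95% interval -0.58 to 0.31) and was not called. The difference between organs was 0.70 (95% interval 0.08 to 1.33) and was not called (limma adjusted p = 0.0828), except without leaf salt replicate 2, where it was 0.91 (limma adjusted p = 0.0499). The ratio of APX6 to APX5 was 6.44 and 6.24 in salt-treated roots, 5.15 and 6.87 in control roots, 6.70 and 3.99 in salt-treated leaves, and 4.60 and 3.75 in control leaves.

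The peroxisomal genes had nearly the same ratio of salt to control means in root, 1.34 for APX3 and 1.35 for APX4. In leaf the groups of APX3 did not overlap and those of APX4 did, and the difference between the genes was not tested. APX4 had 65.1 and 71.9 FPKM in salt-treated roots, against 48.4 and 53.2 FPKM in control roots. In leaves it had 113 and 106 FPKM with salt, against 104 and 109 FPKM without, so that the leaf groups overlapped while the root groups did not. Its root change was 0.42 ± 0.09 (SE, limma adjusted p = 0.0106). That call was lost without root salt replicate 2 or root control replicate 1, with changes of 0.35 and 0.36 (limma adjusted p = 0.0511 and 0.0528), and after scaling to the 75th percentile, at 0.24 (limma adjusted p = 0.0758). After quantile normalization the root call held, at 0.30 (limma adjusted p = 0.0327). The leaf change of APX4 was 0.04 (95% interval -0.18 to 0.27), and the difference between organs was 0.38 (95% interval 0.07 to 0.69) and not called (limma adjusted p = 0.0671).

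APX3 was low in both organs and was the only family member to fall with salt. It had 5.07 and 7.07 FPKM in salt-treated leaves, against 8.64 and 9.38 FPKM in control leaves. In roots it had 4.07 and 4.46 FPKM with salt, against 3.18 and 3.17 FPKM without. The groups did not overlap in either organ, and the sign was opposite. The leaf change was -0.52 ± 0.15 (SE, limma adjusted p = 0.0416) and the root change 0.33 ± 0.15 (SE), which was not called (limma adjusted p = 0.126). The difference between organs was 0.85 ± 0.22 and was called (SE, limma adjusted p = 0.0258). The leaf call was lost under 11 of 17 alternatives, among them leaving out any 1 library other than leaf salt replicate 2, with changes of -0.57 to -0.31 (limma adjusted p 0.0598 to 0.183). The call of the difference was lost without the same 7 libraries, at 0.64 to 0.90 (limma adjusted p 0.0519 to 0.0841), and after quantile normalization, at 0.53 (limma adjusted p = 0.0807).

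APX8 showed no salt change that passed the test. It had 256 and 255 FPKM in salt-treated leaves, against 284 and 273 FPKM in control leaves. The leaf groups did not overlap, with the salt mean at 0.918 times the control mean. In roots it had 1.29 and 1.77 FPKM with salt, against 3.73 and 0.793 FPKM without, and the 2 control libraries lay on either side of both salt libraries. The leaf change was -0.12 (95% interval -1.06 to 0.82, limma adjusted p = 0.863). The spread behind this interval is shared with the root libraries. In a fit of the leaf libraries alone the change was the same, with a limma adjusted p of 0.215.

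The root estimate of APX8 depended on single libraries. With all of them it was -0.21 (limma adjusted p = 0.713). Without root control replicate 1 it was 0.49 and was called higher (limma adjusted p = 0.0349), and without root control replicate 2 it was -0.91 and was called lower (limma adjusted p = 0.00505). The difference between organs followed, at 0.61 (limma adjusted p = 0.0462) and -0.79 (limma adjusted p = 0.0218), against -0.09 with all libraries. As a share of its mean leaf control level, APX8 was at 0.465% and 0.635% in salt-treated roots, against 1.34% and 0.285% in control roots. Root control replicate 1 was thus the highest root library for APX8, and it was also the highest for 154 of the 175 leaf genes described above. APX8 meets the rule that chose those genes, which fixes a low level in root, so its nearness to their median is not a result. At the median share of those genes, the leaf level would make up at most 3.34% of the root level of any other member, reached by APX3 in root control replicate 1. The same rule keeps that median share low in advance, so the small size of this figure is not a result either. The part of leaf transcripts in these values was not tested.

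**Figure D4:**
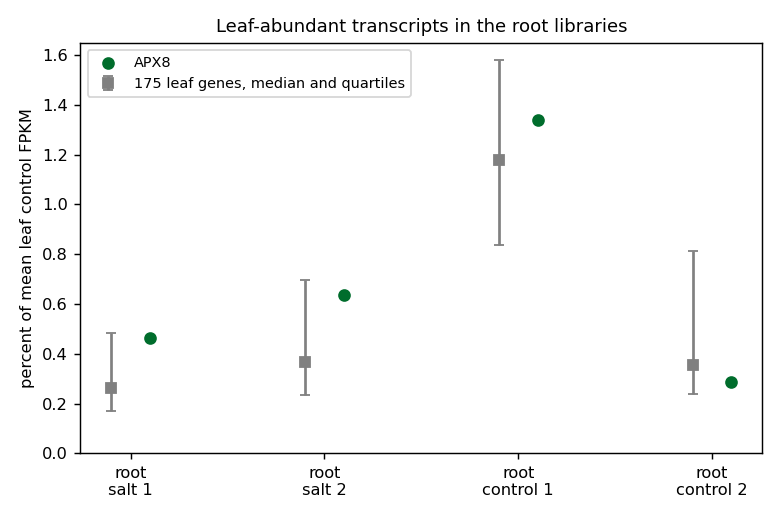
Level in each root library as a percentage of the mean leaf control FPKM (vertical axis, linear, from 0), for APX8 and for 175 leaf-abundant genes shown as median and quartiles. Root control replicate 1 is highest for both, at 1.34% for APX8 and 1.18% for the median.

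Root against leaf was compared within each treatment. With salt, 4 members were above their leaf level in root and 3 below it, beside 47.7% higher and 24.5% lower among all tested genes. Without salt, 3 were higher in root and 3 lower, beside 39.1% and 28.3% among all tested genes. The counts lie near these shares and do not set the family apart. The comparisons with and without salt use separate libraries but share the estimate of the spread.

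APX8 had the largest difference between organs of the family. It had 1.53 ± 0.333 FPKM in salt-treated roots and 255 ± 1.13 FPKM in salt-treated leaves (SD, n = 2), a 167-fold lower mean. Without salt it had 2.26 ± 2.08 FPKM in roots and 278 ± 7.97 FPKM in leaves (SD, n = 2), a 123-fold lower mean. The unsalted root libraries lay far apart, at 3.73 and 0.793 FPKM. On the log2 scale the differences were -6.67 ± 0.39 with salt (SE, limma adjusted p = 8.22e-06) and -6.58 ± 0.39 without (SE, limma adjusted p = 9.33e-06). The difference without salt was -7.28 without root control replicate 1 and -5.88 without root control replicate 2, and was called in both (limma adjusted p = 2.32e-06 and 3.52e-06). Fewer than 1% of all tested genes were further towards leaf, 0.442% with salt and 0.362% without.

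APX1, APX2 and APX7 were higher in root in both treatments. For APX1 the difference was 1.29 ± 0.12 with salt (SE, limma adjusted p = 6.6e-05) and 1.64 ± 0.12 without (SE, limma adjusted p = 2.21e-05). For APX2 it was 0.79 ± 0.11 with salt (SE, limma adjusted p = 0.000642) and 1.29 ± 0.11 without (SE, limma adjusted p = 6.24e-05). For APX7 it was 1.67 ± 0.11 with salt (SE, limma adjusted p = 1.24e-05) and 1.40 ± 0.11 without (SE, limma adjusted p = 3.18e-05). The ratio of root to leaf means for APX7 was 3.26 with salt and 2.74 without. These 6 calls, and the 2 of APX8, held under each of the 17 alternatives.

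Both peroxisomal genes were lower in root. APX4 differed by -0.67 ± 0.09 with salt (SE, limma adjusted p = 0.000551) and -1.05 ± 0.09 without (SE, limma adjusted p = 6.39e-05). APX3 differed by -1.26 ± 0.15 without salt (SE, limma adjusted p = 0.000335) and by -0.41 ± 0.15 with it (SE, limma adjusted p = 0.0467). The last call was lost under 10 of 17 alternatives, among them leaving out any 1 library other than leaf salt replicate 1, with differences of -0.47 to -0.21 (limma adjusted p 0.0661 to 0.247). Without salt both genes therefore stood at lower levels in root, with means of 50.8 and 106 FPKM for APX4 in root and leaf, and of 3.17 and 9.01 FPKM for APX3.

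The neighbouring genes APX5 and APX6 did not pass the test between unsalted organs. APX6 differed by 0.20 (95% interval -0.04 to 0.43, limma adjusted p = 0.117) and APX5 by -0.23 (95% interval -0.67 to 0.21, limma adjusted p = 0.301). With salt APX6 was higher in root, by 0.86 ± 0.10 (SE, limma adjusted p = 0.000211). APX5 differed by 0.47 (95% interval 0.03 to 0.91), which was not called (limma adjusted p = 0.0547). It was called under 3 alternatives: without leaf salt replicate 2, at 0.68 (limma adjusted p = 0.024), with a pseudocount of 5, at 0.25 (limma adjusted p = 0.0453), and without the mean-variance trend, at 0.47 (limma adjusted p = 0.0479).

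**Figure D5:**
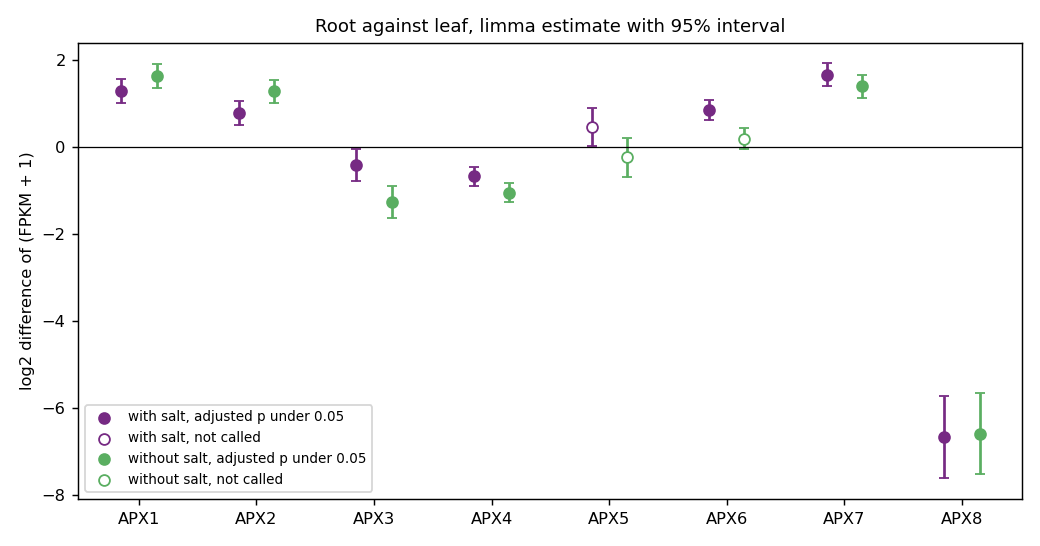
Root minus leaf on the log2(FPKM + 1) scale for each gene (vertical axis), with salt left of without salt, with 95% intervals from limma and filled points where the adjusted p is under 0.05. APX8 lies at -6.67 and -6.58, far from the other 7 genes, which lie between -1.26 and 1.67.

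Likeness of pattern was measured as the root mean square distance between log2(FPKM + 1) profiles over the 8 libraries, each centred on its own mean. By this measure APX1 and APX2 were 0.227 apart, APX1 and APX7 0.228, APX3 and APX4 0.239, and APX5 and APX6 0.297. The nearest member was thus the one of the same compartment or, for APX5 and APX6, the chromosomal neighbour, except that APX7 was nearest to APX1 and APX8 to APX4, at 2.92. APX7 and APX8, both plastid isoforms, were 4.14 apart, the largest distance of the 28 pairs. Many other genes were nearer than the nearest member: 63 genes were nearer to APX7 than APX1 was, and 3398 were nearer to APX5 than APX6 was. The identifier nearest to APX1, the member with the highest mean level, was LOC_Os02g46480, at a distance of 0.0739. It had 148 and 139 FPKM in salt-treated roots, 106 and 115 in control roots, 52.3 and 60.7 in salt-treated leaves, and 33.4 and 33.6 in control leaves. The next was LOC_Os01g43540, at 0.10.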

How the data were processed

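RNA was sequenced in 8 libraries, 2 in each of 4 groups. The deposited values are FPKM per gene with confidence bounds on either side, in the gene tracking format of Cufflinks, per the file headers. TopHat2 2.0.13, Cufflinks 2.2.1 and Cuffdiff are named in the submitters' processing notes. The sources used here do not give the genome build, annotation or strandedness. The test covered 23776 of 55797 genes, those reaching 1 FPKM in at least 2 libraries. Log2(FPKM + 1) was fitted with 4 group means in limma 3.58.1 (R 4.3.3) with a mean-variance trend, and the script was tested on simulated data. Fold changes on this scale understate the change of low genes. Implied fragments are the square of 2 × FPKM divided by the distance to the upper bound. The members, lists and tests were chosen with earlier results of these data known, and all 8 members are named whatever their values. Member names come from the selection rule. The other enzymes of the ascorbate-glutathione cycle and the tissue markers were not used here, because the reference gene table holds 0 of the 55797 identifiers. Alternatives were other pseudocounts (0.1 and 5), filters, scalings and libraries, only the groups compared, a replicate block, and, added after the data were seen, a fit without the trend.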

Additional observations from a re-analysis of the deposited data

Results flagged for a closer look

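The salt change of APX3 differed between root and leaf by 0.85 on the log2 scale, with a root change of 0.33 and a leaf change of -0.52. It is listed because the difference itself was tested and passed (limma adjusted p = 0.0258). Of the 8 members 2 passed in this direction, where 23.1% of all tested genes did, so the count does not set the family apart. The APX3 call was lost after quantile normalization, at 0.53 (limma adjusted p = 0.0807), and did not hold when most single libraries were left out. The values are 4.07 and 4.46 FPKM in salt-treated roots against 3.18 and 3.17 FPKM in control roots, and 5.07 and 7.07 FPKM in salt-treated leaves against 8.64 and 9.38 FPKM in control leaves. The deposited bounds of APX3 reach 18.5% to 33.2% of the value to either side.

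The salt change of APX6 differed between root and leaf by 0.66, with a root change of 0.79 and a leaf change of 0.13. The tested difference passed as well (limma adjusted p = 0.0128), but not after quantile normalization, at 0.45 (limma adjusted p = 0.0515). Groups of 2 libraries are too small to look for a single library far from the others of its group.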

How the results depend on the processing

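Over 17 alternatives (16 for the difference between organs, and APX5 is not tested at a minimum of 5 FPKM), 593 of the values per gene and comparison kept their direction and side of the threshold. In 58 a call was lost, in 9 a call was gained with the same sign and in 7 the sign changed, 2 of which also gained a call (APX8 without root control replicate 1, in root and for the difference between organs). After quantile normalization the difference between organs changed sign for APX1 (0.0093). With a library left out, signs changed for APX4 in leaf (-0.0013 to 0.090), APX5 in leaf (-0.346 to 0.0789), APX8 in root (-0.909 to 0.490) and APX8 for the difference between organs (-0.787 to 0.613). The members that fell in leaf numbered 0 with a pseudocount of 0.1, with no filter, after quantile normalization and with only the groups compared, and 0 to 1 with a library left out. The members that rose in root numbered 2 after scaling to the 75th percentile, 3 with only the groups compared, and 2 to 5 with a library left out; those that fell there numbered 0 to 1. Members more positive in root numbered 0 after quantile normalization and 1 to 3 with a library left out. Members more positive in leaf numbered 2 after scaling to the 75th percentile, 1 at a minimum of 5 FPKM and 0 to 1 with a library left out. Of all genes, 5185 to 7975 were called in leaf with a library left out, against 8027 with all. Members that rose in root numbered 4 with no filter and 5 after quantile normalization. Calls over all genes in root, in either direction, shifted too, from 10330 as deposited to 9766 after scaling to the 75th percentile. They numbered 9973 after quantile normalization, 9850 with no filter and 7577 with only the groups compared. Of the 23776 tested genes, 3392 were more positive in leaf after scaling to the 75th percentile, and 3619 in root after quantile normalization. The causes were not tested.

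Of all genes called for the difference between organs, 70.4% were more positive in root as deposited, 55.0% with scaling to the 75th percentile, and 48.4% with quantile normalization. For root against leaf with salt, 66.1%, 58.5% and 55.2% were higher in root, in the same order. For salt in root, 47.2% were higher after quantile normalization.

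Replicate numbers are shared by the groups but the labels do not say that they pair the samples. Deviations of same-numbered libraries correlated at 0.213 between the root groups and at -0.02 to 0.07 otherwise. With the replicate block, 7778 genes were called in leaf and 10012 in root, and no call of a member changed.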
